A study of Mus musculus with 11 samples.

Results

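The Slc25 carriers are the 38 genes, of 14602 in the count table, whose symbol is Slc25a followed by a number, and all 38 of them enter the counts and medians here whatever their level or difference. They were measured by RNA sequencing of RPE/choroid from C57BL/6J mice, the neural retina having been removed. The 6 naïve control libraries came from untreated mice and the 5 laser treated libraries from mice in which 1 eye received a nanosecond laser at 9 months of age. Tissue was taken at 12 months of age in both groups, which for the treated eyes was 3 months after the laser. Tissue of one eye holds RPE, choroid and whatever else adheres to them, so in these bulk samples fewer cells of a type and less RNA per cell cannot be told apart.

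Carriers of this family sit mostly in the inner mitochondrial membrane, which is closed to charged metabolites, and each moves a defined set of substrates between matrix and cytosol. A carrier is built from repeats of a similar unit, each with a conserved signature that begins with proline, and it alternates between states open to either side of the membrane. The RPE, which feeds on lactate, lipid and amino acids and passes glucose on to the photoreceptors, depends on mitochondrial metabolism. A few members lie elsewhere, such as Slc25a17 in the peroxisome and Slc25a46 in the outer mitochondrial membrane.

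The coding sequences of the longest coding transcript (GRCm38, GENCODE M21) were searched for codons of the signature, proline, any residue, aspartate or glutamate, any 2 residues, lysine or arginine. At least 1 such stretch was found in 37 of the 38 members, at least 2 in 32 and at least 3 in 22, while Slc25a46 held 0. The first stretch of 6 members is given here, each in a window of 60 coding bases on the sense strand with the 18 bases of the signature in capitals. Slc25a4 and Slc25a5 are shown as the pair of highest level, Slc25a10 and Slc25a23 as the pair of GC-rich members whose groups did not overlap, and Slc25a17 and Slc25a14 as members of lower GC content that were lower after laser.
Slc25a4: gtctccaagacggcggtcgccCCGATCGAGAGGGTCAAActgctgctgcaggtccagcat
Slc25a5: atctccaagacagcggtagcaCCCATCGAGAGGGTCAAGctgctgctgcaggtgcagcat
Slc25a10: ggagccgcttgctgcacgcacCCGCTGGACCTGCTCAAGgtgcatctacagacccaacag
Slc25a23: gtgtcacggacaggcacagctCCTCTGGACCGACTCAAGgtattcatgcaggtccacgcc
Slc25a17: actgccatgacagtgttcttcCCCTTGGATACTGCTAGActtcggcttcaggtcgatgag
Slc25a14: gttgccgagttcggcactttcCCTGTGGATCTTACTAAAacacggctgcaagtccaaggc
The windows of Slc25a10 and Slc25a4 each held 63.3% G or C, that of Slc25a23 60.0%, that of Slc25a5 58.3%, that of Slc25a14 53.3% and that of Slc25a17 51.7%. On GRCm38 the genes lie at chr8:46206797-46211284 on the minus strand (Slc25a4), chrX:36795651-36798807 on the plus strand (Slc25a5), chr11:120491840-120499187 on the plus strand (Slc25a10), chr17:57043711-57059863 on the minus strand (Slc25a23), chr15:81318911-81360812 on the minus strand (Slc25a17) and chrX:48623413-48662294 on the plus strand (Slc25a14).

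Libraries held 25700881 to 38755994 counts, of which the Slc25 genes together took 0.404% to 0.511% of them. RPE markers summed to 93665 to 130427 CPM (counts scaled to a common library size after TMM normalization) in naïve control and 76816 to 126193 in laser treated libraries, although Best1, a chloride channel of the RPE, averaged 1.2 and 0.706 CPM. Of the 10 RPE markers, 1 was higher (Stra6) and 1 lower (Mitf) at an unadjusted p under 0.05, and 0 were at 0 in all libraries. Of all genes 8.24% were higher and 7.68% lower at this threshold, and all marker counts here stand against these shares. With the GC trend removed 0 of the 10 were past it, against 8.05% of all genes. Neural retina markers summed to 6069 to 22915 against 4103 to 19542 CPM, with 0 of 11 at an unadjusted p under 0.05. Skeletal muscle markers summed to 41.0 to 532 against 57.1 to 810 CPM, with 0 of 10. The log2 fold change was above 0 in 1 of the 11 (median -0.49) and in 9 of the 10 (median 0.46), against 48.5% of all genes. With the GC trend removed these medians were -0.42 and 0.32. Then 1 of the 11 was past the threshold and lower, and 0 of the 10 were past it. Erythroid, fibroblast, endothelial and macrophage markers, 22 in all, held 1 such gene, Hbb-b1, which was lower, and of the 2 Schwann cell markers in the table Mbp was higher. Mbp averaged 59.0 and 275 CPM, a log2 fold change of 2.22 (SE 0.74), or 2.21 with the GC trend removed. Its groups overlapped, at 24.3 to 165 CPM in naïve control and 30.1 to 566 in laser treated libraries. Prx, the other Schwann cell marker, went the other way at 1.89 and 0.683 CPM. Its log2 fold change was -1.46 (SE 1.28), or -1.79 with the GC trend removed, both outside the threshold. With that trend removed 3 of 4 erythroid markers were past the threshold and lower. Among them was Hbb-b1, which had no GC value, so no trend was removed for it and its log2 fold change stayed at -1.34. The part of these cell types in the results below was not tested. Xist, transcribed from the inactive X chromosome of females, exceeded the summed CPM of the Y-linked Ddx3y, Uty, Kdm5d and Eif2s3y in 4 of 6 naïve control and 2 of 5 laser treated libraries. Laser treated library 2 held both, at 44.1 CPM of Xist and 8.29 CPM of the Y-linked genes. The headers of the assembled-transcript files mark 5 libraries (3 control, 2 treated) as R1 and the other 6 (3 of each group) as R2, without saying what the mark means.

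The level of the family was set by few members. Per kilobase of transcript, Slc25a4 (879 CPM per kilobase) and Slc25a5 (769), the ADP/ATP translocases that exchange mitochondrial ATP for cytosolic ADP, stood first, with overlapping ranges over the libraries. They were followed by Slc25a3 (189), which brings phosphate into the matrix, Slc25a39 (160), a glutathione carrier, and Slc25a11 (113), the oxoglutarate and malate carrier. Then came Slc25a22 (38), a glutamate carrier, Slc25a10 (36.5), the dicarboxylate carrier, and Slc25a33 (36.3), a pyrimidine nucleotide carrier, whose neighbouring levels overlapped between libraries. Slc25a21 (0.835), which carries oxoadipate, Slc25a45 (0.322) and Slc25a34 (0.298) stood last, and each had 0 counts in 1 or 2 libraries. Per kilobase of all annotated exons together, which is longer than the single transcript used here, Slc25a39 (97.6) and Slc25a11 (91.4) stood before Slc25a3 (54.9), and Slc25a22 (17.8) stood at rank 11 in place of 6. The carriers of adenine nucleotides and phosphate made up 66.8% of the CPM of all members, those of di- and tricarboxylates and carnitine 9.16%, and those of amino acids 8.55%.

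**Figure D1:**
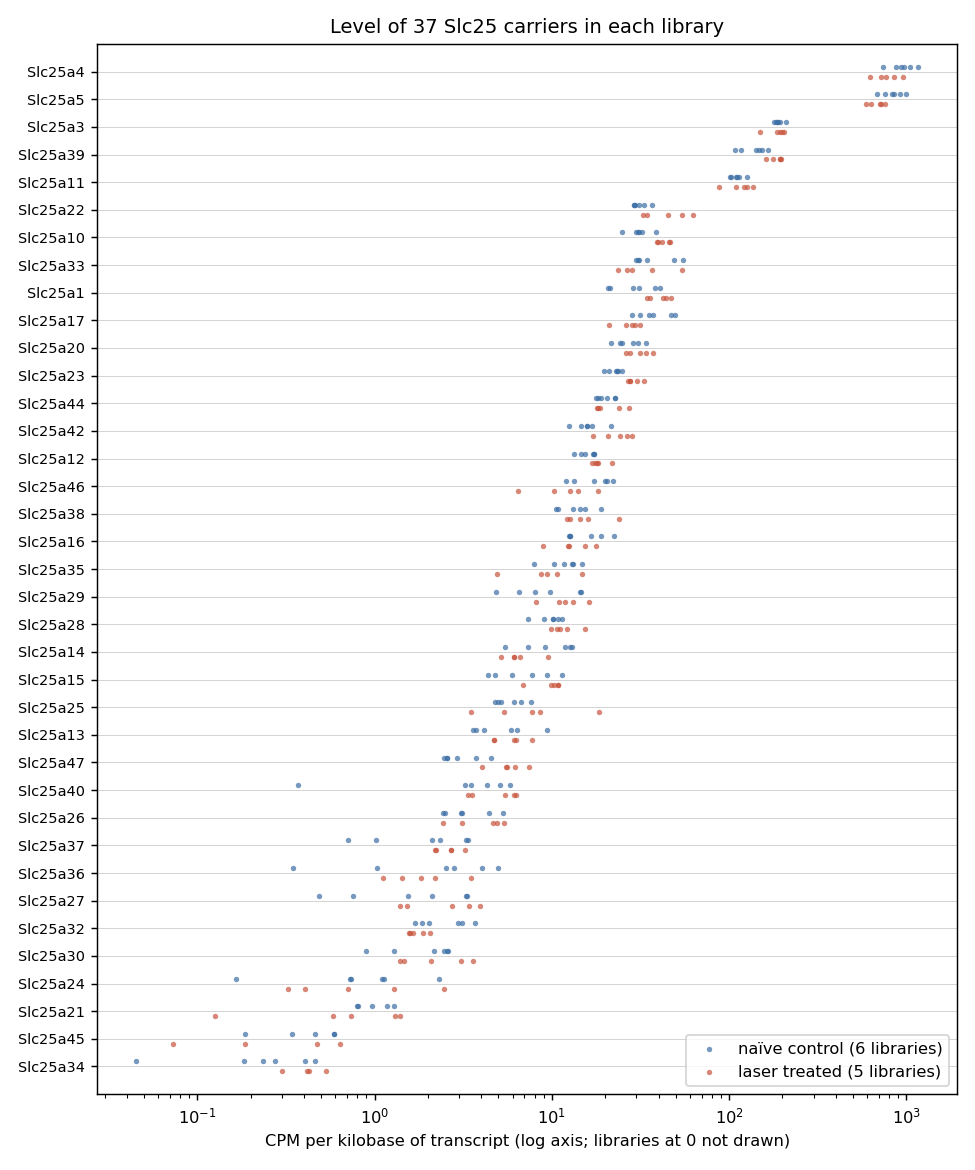
Level of 37 of the 38 Slc25 carriers in each library, as CPM per kilobase of transcript on a log axis, with naïve control libraries in blue above laser treated libraries in red. The members are ordered by their mean, from Slc25a4 at 879 to Slc25a34 at 0.298.

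Laser treated samples were compared with naïve controls to ask which carriers differed 3 months after treatment. No member passed an adjusted p under 0.05 by the quasi-likelihood test of edgeR, adjusted over all genes after Benjamini and Hochberg, and 0.0% of all 14602 genes did; the smallest adjusted p of a member was 0.174. At an unadjusted p under 0.05, 11 members differed, or 28.9%, against 15.9% of all genes. Of these, 7 were higher after laser (background 8.24%) and 4 lower (background 7.68%). The log2 fold change was above 0 in 25 of 38 members, against 48.5% of all genes, and its median was 0.21 over the members and -0.019 over all genes. With the GC trend removed these medians were 0.090 and 0.0084, and on log2(TPM + 1), from the assembled transcripts, 0.064 and 0.057. DESeq2 called 4 members at an adjusted p under 0.05, Slc25a10 (0.0350), Slc25a23 (0.0408), Slc25a22 (0.0457) and Slc25a39 (0.0498), with 6.68% of the genes it adjusted called and 12 members without an adjusted p. Every direction below is therefore that of an unadjusted test.

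Of the carriers of di- and tricarboxylates and carnitine, 2 of 7 were higher and 0 lower at an unadjusted p under 0.05, and the median log2 fold change was 0.19. The counts of this and the following groups stand against 8.24% of all genes higher and 7.68% lower, and with the GC trend removed (described further on) 0 of these 7 were past the threshold. Slc25a10 exchanges malate or succinate for phosphate. In naïve controls it lay between 50.4 and 78.2 CPM, with a median of 62.8, and in laser treated libraries 1 to 5 it was at 92.9, 85.0, 93.7, 79.2 and 80.3 CPM. All 5 laser treated libraries lay above all 6 naïve control libraries, as happened in either direction in 2.26% of all genes and in this direction in 1.4%. Among the 38 members it happened in 2. Slc25a10 was higher by 0.44 on the log2 scale (SE 0.12, 95% interval 0.18 to 0.71, edgeR adjusted p = 0.174). On log2(TPM + 1) its log2 fold change was 0.40, outside the unadjusted threshold, as it also was on log2(TPM + 0.1). Of its exon bases, 6.60% overlap Gm11788 on the opposite strand, whose reads cannot be told apart from its own unless strand was used in counting.

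Slc25a1 exports citrate, the source of cytosolic acetyl units. It lay between 34.7 and 67.8 CPM, with a median of 49.7, in naïve controls, and at 73.1, 70.2, 60.0, 57.1 and 78.0 CPM in laser treated libraries. The groups overlapped, with 3 laser treated libraries above all controls. Its log2 fold change was 0.43 (SE 0.19, 95% interval 0.025 to 0.84, edgeR adjusted p = 0.287). Slc25a11, of higher level, averaged 189 CPM ± 16 (SD, n = 6) and 199 ± 31.9 (SD, n = 5), with a log2 fold change of 0.069 and a 95% interval from -0.19 to 0.33. The interval of Slc25a20, which carries acylcarnitines, was -0.13 to 0.52. Those of Slc25a21 and Slc25a34 were -2.02 to 1.98 and -1.80 to 2.46, so differences of several fold were not detectable in them.

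Among the carriers of adenine nucleotides and phosphate, 1 of 6 was higher and 1 lower, and the median log2 fold change was -0.0074. After removal of the GC trend 0 were higher and 1 lower. Slc25a23, a calcium-dependent carrier of ATP-magnesium and phosphate, lay between 66.4 and 83.4 CPM, with a median of 78.0, in naïve controls. In laser treated libraries 1 to 5 it was at 92.8, 92.3, 111, 101 and 90.6 CPM. The groups were again apart, the lowest laser treated library standing above the highest control. On the log2 scale the difference was 0.36 (SE 0.11, 95% interval 0.13 to 0.59, edgeR adjusted p = 0.177), and 3.17% of its exon bases overlap Gm17168 on the opposite strand.

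The translocases that carry most of the family's counts were on the other side of 0. Slc25a5 lay between 850 and 1228 CPM, with a median of 1047, in naïve controls and at 891, 737, 886, 785 and 937 CPM in laser treated libraries. The groups overlapped, and laser treated libraries 2 and 4 lay below all controls. Slc25a5 thus had a log2 fold change of -0.30 (SE 0.12, 95% interval -0.55 to -0.048, edgeR adjusted p = 0.244). Slc25a4 lay between 1432 and 2253 CPM, with a median of 1831, in naïve controls and at 1856, 1396, 1641, 1201 and 1476 CPM in laser treated libraries, again with overlap. Its log2 fold change was -0.28 (SE 0.14, 95% interval -0.58 to 0.016, edgeR adjusted p = 0.341), outside the unadjusted threshold. Slc25a3 averaged 307 CPM ± 16.8 (SD, n = 6) against 302 ± 34.9 (SD, n = 5), with a log2 fold change of -0.023 and an interval from -0.25 to 0.20. Slc25a5 shares sequence with an annotated pseudogene, Slc25a5-ps, to which counting could have given some of its reads, which was not tested.

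Among the amino acid carriers, 2 of 9 were higher and 0 lower, 8 of 9 log2 fold changes were above 0, and their median was 0.23. Once the GC trend was removed 2 were higher, Slc25a47 and Slc25a12 in place of Slc25a22, and 0 lower. Slc25a22, which brings glutamate into mitochondria, lay between 81.7 and 103 CPM, with a median of 85.2, in naïve controls. In laser treated libraries it was at 96.5, 127, 175, 152 and 92.3 CPM. Libraries 2, 3 and 4 lay above all controls and libraries 1 and 5 among them. Slc25a22 was higher by 0.54 on the log2 scale (SE 0.16, 95% interval 0.18 to 0.89, edgeR adjusted p = 0.179).

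Slc25a47, a member best known from liver and grouped here with the amino acid carriers although its substrate is less certain, was low in both groups, with naïve controls between 4.63 and 8.52 CPM and a median of 5.18. Laser treated libraries stood at 7.67, 14.1, 10.6, 11.8 and 10.4 CPM. All but library 1 lay above every control, and the log2 fold change, 0.89 (SE 0.27, 95% interval 0.30 to 1.47, edgeR adjusted p = 0.179), was of the largest size among the 11 members. The aspartate and glutamate carriers of the malate-aspartate shuttle, Slc25a12 and Slc25a13, had log2 fold changes of 0.23 (SE 0.11) and 0.10 (SE 0.27), with edgeR adjusted p = 0.352 and adjusted p = 0.907.

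Among the carriers of iron and glutathione all 4 log2 fold changes were above 0, and 1, that of Slc25a39, had an unadjusted p under 0.05, against 0 with the GC trend removed. Slc25a39 lay between 181 and 279 CPM, with a median of 244, in naïve controls and at 327, 331, 325, 273 and 298 CPM in laser treated libraries. The groups overlapped by library 4 alone. The difference was 0.41 on the log2 scale (SE 0.13, 95% interval 0.14 to 0.68, edgeR adjusted p = 0.179). Its paralog Slc25a40 was far lower, at 10.4 CPM ± 5.30 (SD, n = 6) and 13.8 ± 3.87 (SD, n = 5), and the iron carriers Slc25a28 and Slc25a37, known as mitoferrins, had log2 fold changes of 0.27 (SE 0.19) and 0.29 (SE 0.38).

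The carriers of other nucleotides and cofactors held members on both sides, 1 of 8 higher and 2 lower, and their median was -0.21 on the log2 scale. Of the 8, 0 were past the threshold once the GC trend was removed. Slc25a42, which brings coenzyme A into mitochondria, lay between 39.7 and 68.7 CPM, with a median of 50.3, in naïve controls and at 77.7, 90.3, 85.3, 66.7 and 54.2 CPM in laser treated libraries. Libraries 1, 2 and 3 lay above all controls. Libraries 4 and 5 lay within the range of the controls, and the log2 fold change was 0.54 (SE 0.17, 95% interval 0.18 to 0.90, edgeR adjusted p = 0.181).

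Slc25a17, the peroxisomal carrier of coenzyme A, FAD and NAD, differed the other way. It lay between 49.1 and 85.5 CPM, with a median of 62.6, in naïve controls and at 48.6, 45.0, 50.5, 36.4 and 54.4 CPM in laser treated libraries, 3 of which lay below all controls. Slc25a17 had a log2 fold change of -0.49 (SE 0.17, 95% interval -0.85 to -0.12, edgeR adjusted p = 0.21). Slc25a32, a carrier of folate and FAD, lay between 9.98 and 21.7 CPM, with a median of 14.7, against 12.2, 9.38, 9.76, 11.0 and 9.26 CPM. The groups overlapped at a low level, and the log2 fold change was -0.55 (SE 0.25, 95% interval -1.08 to -0.017, edgeR adjusted p = 0.301). Slc25a33, the pyrimidine nucleotide carrier, averaged 72.2 CPM ± 20.2 (SD, n = 6) against 64.0 ± 23.5 (SD, n = 5), and its paralog Slc25a36 13.7 ± 9.14 (SD, n = 6) against 10.5 ± 4.82 (SD, n = 5). Neither had an unadjusted p under 0.05.

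Of the 3 carriers related to uncoupling proteins, Slc25a14 was lower, and with the GC trend removed 0 were past the threshold. It lay between 9.78 and 23.5 CPM, with a median of 19.0, in naïve controls and at 17.1, 9.38, 11.1, 11.9 and 11.1 CPM in laser treated libraries. Only library 2 lay below all controls, and the log2 fold change was -0.57 (SE 0.26, edgeR adjusted p = 0.314), with an unadjusted p just inside the threshold. Slc25a30, its close relative, had a log2 fold change of 0.22 (SE 0.37), but of -1.33 on log2(TPM + 1).

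The other members had no unadjusted p under 0.05, and their groups overlapped. Among those of amino acids, Slc25a15, the ornithine carrier, averaged 24.9 CPM ± 9.54 (SD, n = 6) and 33.5 ± 5.67 (SD, n = 5), with a log2 fold change of 0.42 (SE 0.25). Slc25a29, for basic amino acids, had 0.31 (SE 0.29) and Slc25a38, for glycine, 0.19 (SE 0.22). Slc25a44, which carries branched-chain amino acids, had 0.077 (SE 0.14). Slc25a38 and Slc25a44 were at -0.041 and -0.062 with the GC trend removed.

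Slc25a26, which brings in S-adenosylmethionine, had a log2 fold change of 0.24 (SE 0.32). Slc25a16 and Slc25a35 were on the other side of 0, at -0.25 (SE 0.21) and -0.29 (SE 0.24), and 31.3% of the exon bases of Slc25a35 overlap Rangrf on the opposite strand. Such an overlap was 14.9% for Slc25a33, with Gm13068, and 8.92% for Slc25a11, with Rnf167. Slc25a24 and Slc25a45, below 10 CPM in every library, had log2 fold changes of 0.0085 and -0.40 with SEs of 0.67 and 1.2, so neither sign could be told. Their coefficients of variation over all libraries were 73.1% and 75.7%.

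**Figure D2:**
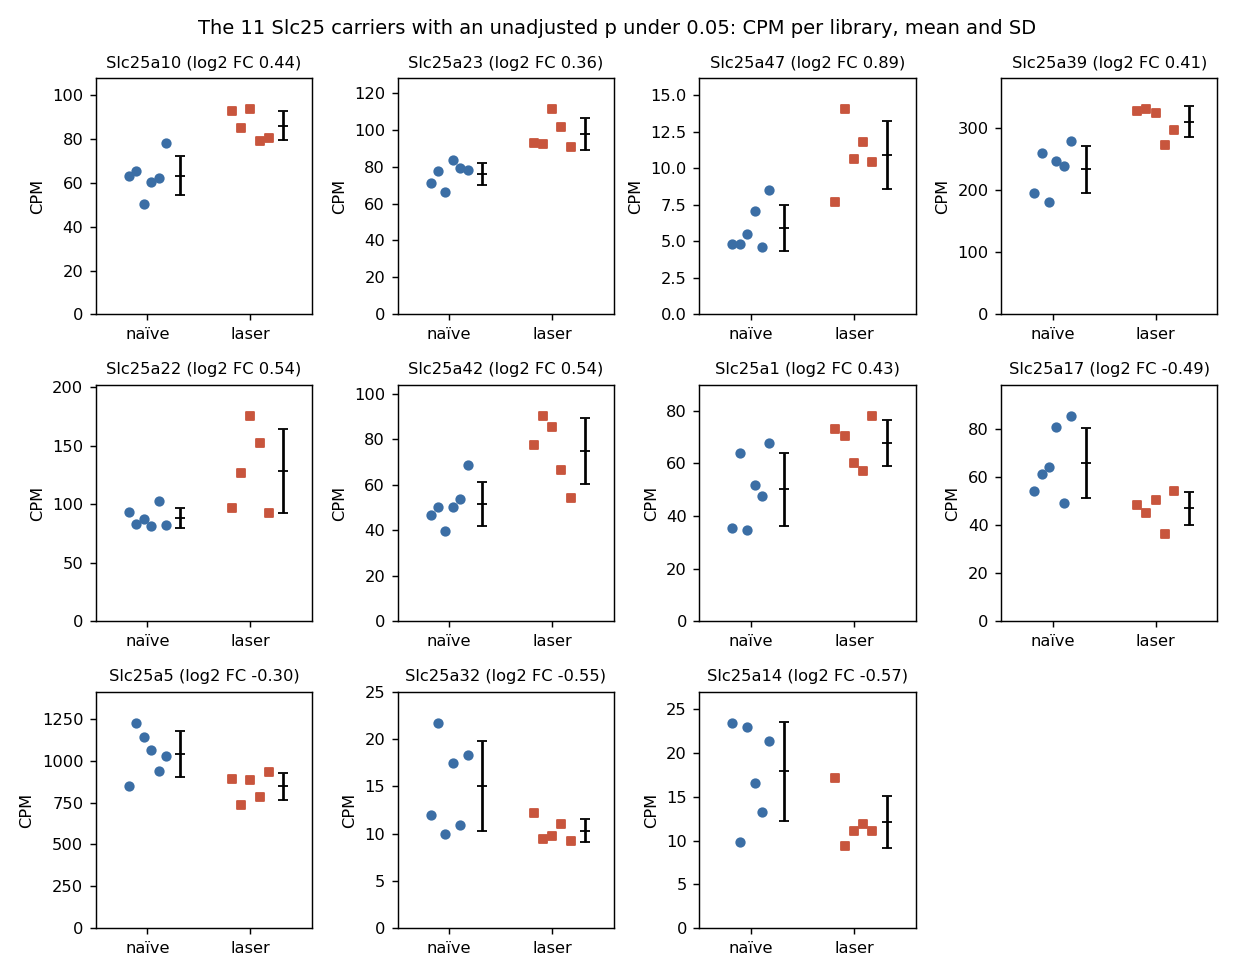
CPM in each library of the 11 Slc25 carriers with an unadjusted p under 0.05, naïve control libraries as circles and laser treated libraries as squares, with the group mean and SD beside them on axes that start at 0. The groups are apart in Slc25a10 and Slc25a23 and overlap in the other 9.

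**Figure D3:**
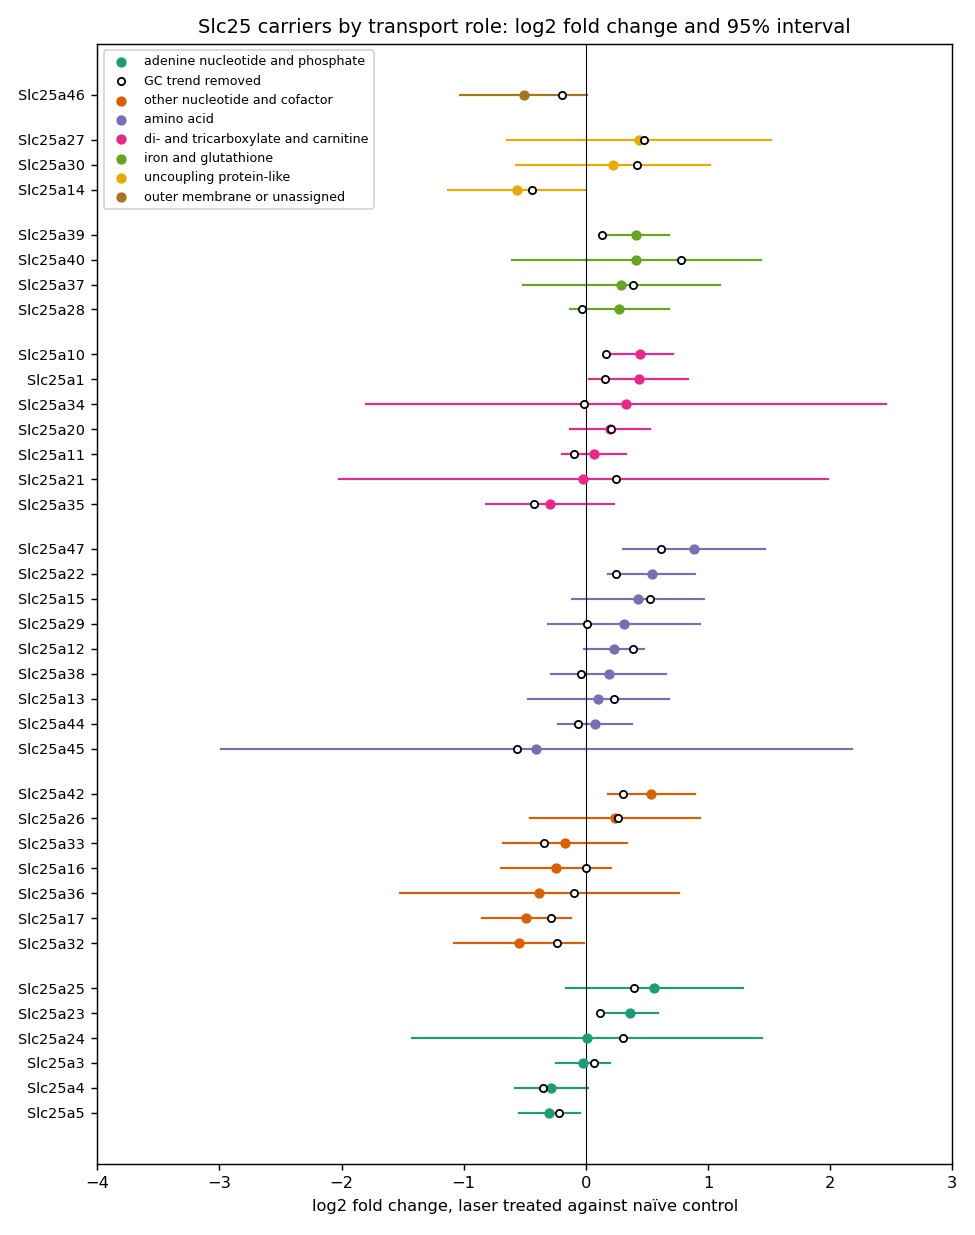
Difference in log2 expression between laser treated and naïve control samples for 37 of the 38 carriers, by transport role, as a filled point with its 95% interval, and after removal of the GC trend as an open point. Intervals of 11 members leave out 0, and the open points of all 11 lie nearer to 0 than the filled ones.

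The direction of the 11 members went with the base composition of their transcripts. GC content was 56.2% to 60.6% in the 7 higher members and 41.2% to 48.6% in the 4 lower ones, and in their coding sequences 57.6% to 59.7% against 44.6% to 52.2%. Of the 19 members at or above the family's median GC content of 51.0%, 7 were higher and 0 lower, and their median was 0.31 on the log2 scale. Of the 19 below it, 0 were higher and 4 lower, with a median of 0.0085. All genes of the table followed GC content too, with a median of 0.22 and 69.6% above 0 on the GC-rich side, and -0.20 and 30.9% on the other. On the GC-rich side 16.5% of all genes were higher and 1.43% lower at an unadjusted p under 0.05, and on the other side 1.36% and 13.2%.

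After a loess trend of expression on GC content was removed from each library, 3 members (7.89%) had an unadjusted p under 0.05, against 8.05% of all genes (3.8% higher and 4.25% lower), and 0 passed adjustment. The log2 fold change was then above 0 in 23 of 38 members, against 51.0% of all genes. Slc25a12 was then higher by 0.39 (edgeR adjusted p = 0.588) and Slc25a47 by 0.62 (adjusted p = 0.594), while Slc25a4 was lower by a log2 fold change of -0.35 (adjusted p = 0.605). The log2 fold changes of the 7 higher members ran from 0.11 to 0.62 and those of the 4 lower members from -0.44 to -0.22, each still on its side of 0. For Slc25a10 it was 0.16 and for Slc25a23 0.11.

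**Figure D4:**
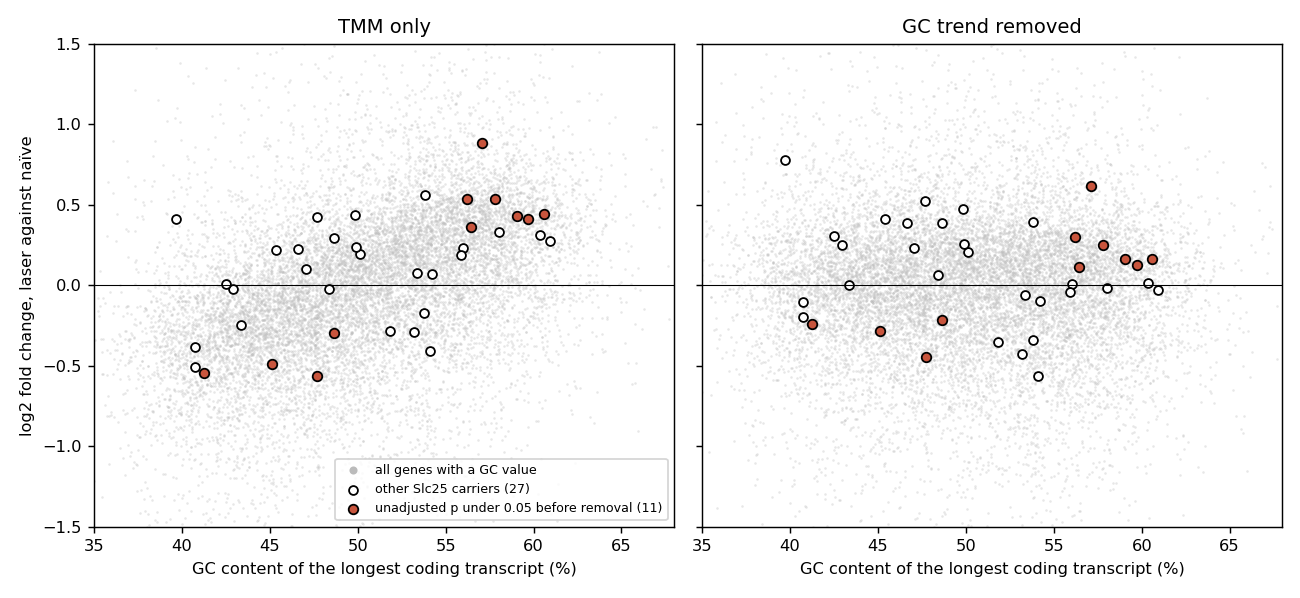
Difference in log2 expression between laser treated and naïve control samples by transcript GC content, before (left) and after (right) removal of the GC trend, with all genes in grey, the 11 Slc25 carriers of unadjusted p under 0.05 in red and the other 27 in white. The vertical axis is cut at -1.5 and 1.5, and the slope of the grey genes on the left is not seen on the right.

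The members were also read within parts of the libraries. All 7 higher members had a positive and all 4 lower members a negative difference of mean log2 CPM within R1 and within R2, and again among libraries in which Xist exceeded the Y-linked genes and among the others. The members were chosen by their difference over these same libraries, and of all genes with an unadjusted p under 0.05 98.5% kept their sign within R1 and R2 and 99.5% in both classes of sex-linked expression, so the signs say nothing particular to the carriers. For Slc25a10 the difference was 0.49 where Xist exceeded them and 0.45 in the other libraries, and for Slc25a42 0.80 and 0.34. For Slc25a14, which lies on the X chromosome, it was -0.84 and -0.18. The class in which Xist was higher held 4 naïve control and 2 laser treated libraries, among them laser treated library 2, which held both signals. The other class held 2 and 3, and a dependence on sex was not tested. With Y-linked expression as a covariate, 9 members had an unadjusted p under 0.05 (background 14.1%) and 0 passed adjustment. Slc25a1, Slc25a32 and Slc25a14 were then past the threshold no longer, and Slc25a27, another relative of the uncoupling proteins, was higher, although its log2 fold change was 0.44 without the covariate and -0.12 on log2(TPM + 1). With the mark R1 or R2 as a covariate there were 9 (background 14.4%). Without naïve control library 6 and laser treated library 5, Slc25a10 and Slc25a42 passed the adjusted threshold (background 2.67%). With the replicate number as a block there were 9, all higher (background 17.4%), with block and GC trend removed 4 (background 10.5%), and with Y-linked expression and GC trend removed 3 (background 7.1%). Leaving out each library in turn left 7 to 13 such members, with 7 when laser treated library 2, the one with both Xist and Y-linked counts, was left out. Slc25a10, Slc25a22, Slc25a23, Slc25a39, Slc25a42, Slc25a47 and Slc25a17 had an unadjusted p under 0.05 in all 11 of these fits. Each fit reuses libraries by which these members were chosen, so staying under the threshold is in part fixed in advance. No share of all genes was set beside these counts. With the GC trend removed and all libraries kept, only Slc25a47 of them had an unadjusted p under 0.05.

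Ratios between paralogs do not depend on the scaling of a library, but paralogs can differ in GC content, as do Slc25a39 (59.7%) and Slc25a40 (39.7%). The log2 ratio of Slc25a4 to Slc25a5 counts averaged 0.82 ± 0.11 (SD, n = 6) in naïve controls and 0.83 ± 0.19 (SD, n = 5) in laser treated libraries, which differ by 0.011 (two-sided exact permutation over 462 splits, p = 0.911). Over 7 pairs the smallest p was that of Slc25a14 to Slc25a30, with a log2 ratio lower by -0.75 (exact permutation p = 0.184), and every pair had an adjusted p of 0.924. The ratio of Slc25a39 to Slc25a40 averaged 4.86 ± 1.5 (SD, n = 6) and 4.54 ± 0.45 (SD, n = 5), and naïve control library 4 stood at 7.90. The smallest p that the splits allow is 0.00216.

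**Figure D5:**
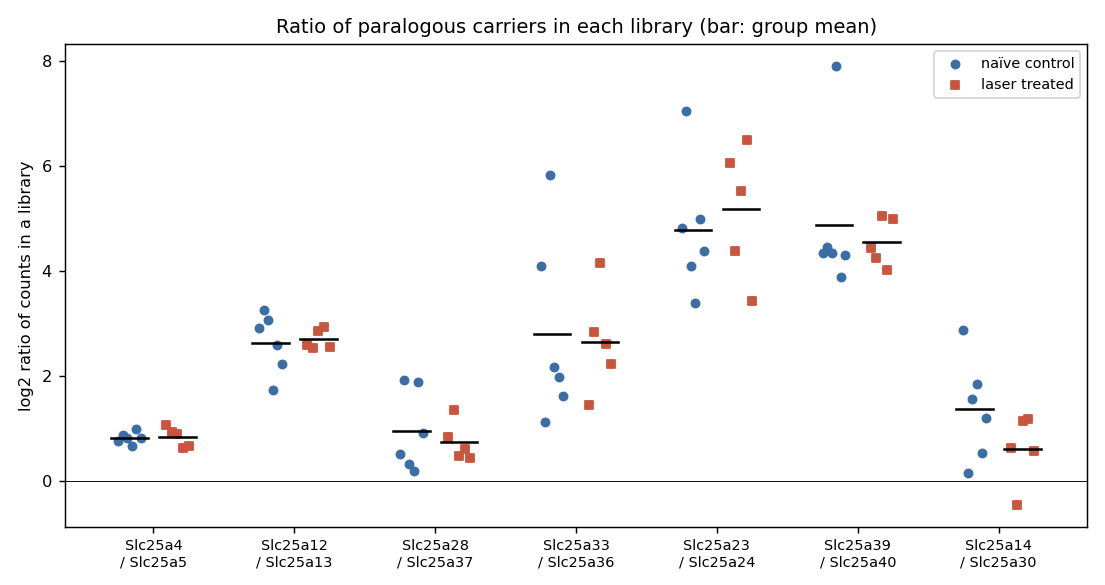
Log2 ratio of counts of 7 pairs of paralogous carriers in each library, with the mean of each group as a bar. The groups overlap in all 7 pairs, and the ratio of Slc25a4 to Slc25a5 spans the least, from 0.61 to 1.06.

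Genes that work beside the carriers gave 15 of 52 at an unadjusted p under 0.05 and 0 after adjustment, against 15.9% of all genes (8.24% higher, 7.68% lower) at the unadjusted threshold. With the GC trend removed 7 of the 52 were past it, against 8.05% of all genes. Of 6 family genes under other symbols, 2 were higher. They were Mtch1, an outer membrane insertase, with a log2 fold change of 0.43 (SE 0.13, edgeR adjusted p = 0.177), and Ucp2, an uncoupling protein, with 0.47 (SE 0.15, adjusted p = 0.191). With the GC trend removed 0 of the 6 were past the threshold, and Mtch1 and Ucp2 were at 0.15 and 0.27. The machinery that imports and inserts carriers held 4 of 14 lower, 1 higher and a median of -0.37. The lower genes were the translocase subunits Tomm5 (-0.76), Tomm6 (-0.48), Tomm20 (-0.36) and Tomm70a (-0.44), and the higher one was the pore Tomm40 (0.36), whose transcript is 61.5% GC. With the GC trend removed 3 of the 14 were lower, Tomm5 (-0.60), Tomm6 (-0.58) and Timm13 (-0.47), a chaperone of the intermembrane space, and 1 was higher, Agk (0.51), a lipid kinase of the insertion complex. Tomm20, Tomm70a and Tomm40 were then at -0.14, -0.096 and 0.057, and the median was -0.25.

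Of 10 other metabolite channels and carriers, 2 were lower, among them Brp44, a subunit of the mitochondrial pyruvate carrier, with a log2 fold change of -0.76 (SE 0.25, edgeR adjusted p = 0.191) that was -0.88 with the GC trend removed. The voltage-dependent anion channels Vdac1, Vdac2 and Vdac3 had no unadjusted p under 0.05. Of the 4 enzymes of the malate-aspartate shuttle, Got2 (0.31) and Mdh2 (0.22) were higher, and with the GC trend removed they were at 0.12 and 0.0034. Of the 4 carnitine acyltransferases, Crat, which loads acetyl groups onto carnitine, was higher by 1.04 (SE 0.27, edgeR adjusted p = 0.172), and Cpt2 by 0.34. Crat was at 0.87 and Cpt2 at 0.23 with the GC trend removed. Of 14 genes of iron-sulphur cluster and haem synthesis, 1, Nfs1 (0.37), was higher and 1, Isca2 (-0.41), lower. With the GC trend removed Nfs1 and Isca2 were at 0.30 and -0.35, outside the threshold, and 1 of the 14, Isca1 (0.38), was higher.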

How the data were processed

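RNA of RPE/choroid of C57BL/6J mice (6 naïve control, 5 laser treated) was pre-amplified with SmartSeq v4 and made into Nextera XT libraries. The authors deposited raw counts per gene without normalization; the submitters' processing notes name STAR 2.5.3a, featureCounts 1.5.3, StringTie 1.3.3, edgeR 3.22.3 and mm10 (GRCm38), and the strand setting is not given in the sources used here. The authors also deposited a log2 fold change, p-values and an F score of their own comparison, which were not used, and StringTie transcripts with TPM per library, which entered an alternative only. Preamplification can change the share of transcripts by base composition.

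Groups followed the labels. Counts were fitted with edgeR 4.0.16 in R 4.3.3 (TMM, filterByExpr, which removed 0 genes and 0 Slc25 genes, robust quasi-likelihood test, Benjamini-Hochberg adjustment over 14602 genes). The common biological coefficient of variation was 0.58. Standard errors come from the log2 fold change and the F statistic. The GC trend was a loess (span 0.3) per library on the longest coding transcript of GENCODE M21. The pair of Slc25a18 and Slc25a22 was not analysed because the count table used here holds no Slc25a18. Ratios of paralogs used counts plus 0.5 and an exact permutation test. Tables were made with Python 3.11.15 and pandas 2.3.3, numpy 2.4.6 and scipy 1.17.1, and the tests were tested on simulated data. Totals of 25700881 to 38755994 counts per library set the precision. Alternatives were DESeq2 1.42.0, limma 3.58.1 (voom, or TPM plus 1 or 0.1), upper quartile scaling, a minimum of 10 counts, no filter, no robust estimation, the replicate number as a block, the label R1 or R2, and libraries left out; Y-linked expression as a covariate was chosen after seeing the data. Naïve control library 6 and laser treated library 5 were left out together because an earlier analysis of these data set them apart.

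The members, roles and lists were chosen with earlier results of these data known. Named members are those with an unadjusted p under 0.05, the 3 smallest p in each direction, members whose groups do not overlap, the 8 highest and 3 lowest levels per kilobase and both genes of each pair, and from other lists at most 4 genes of smallest p. Slc25a15, Slc25a16, Slc25a20, Slc25a25 to Slc25a27, Slc25a29, Slc25a35, Slc25a38, Slc25a44, Slc25a46, Tomm70a, Timm13, Agk, Stra6, Mitf, the Vdac genes, Hbb-b1, Mbp and Prx fall outside this rule and were named after their values were seen. One member is counted among the 38 and is not reported here by itself. P-values measure the spread between these libraries.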

Additional observations from a re-analysis of the deposited data

Results flagged for a closer look

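Of 76 groups of CPM values, 38 carriers in 2 groups, 2 held a library whose gap to the nearest other exceeded Dixon's 95% critical value, or 2.63%, while chance gives about 1 in 20. Slc25a12 was at 139.6 CPM in laser treated library 2, while the other 4 laser treated libraries lay between 107 and 116 CPM. Slc25a15, which carries ornithine, was at 23.7 CPM in laser treated library 3, while the others lay between 34.0 and 37.4 CPM.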

How the results depend on the processing

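The count of members with an adjusted p under 0.05 was 0 under every alternative except DESeq2, with 4, and without naïve control 6 and laser treated 5, with 2 (Slc25a10 and Slc25a42; background 2.67%). The 11 members at an unadjusted p became 3 with the GC trend removed (background 8.05%). With the replicate block and GC trend removed there were 4 (background 10.5%). With Y-linked expression and GC trend removed there were 3 (background 7.1%), and 7 to 13 remained when 1 library was left out. The 15 listed partner genes became 7, 8 and 6 under those GC settings, against the same backgrounds. They became 8 on log2(TPM + 1) and on log2(TPM + 0.1). No share of all genes was set beside the counts on TPM or with 1 library left out. The median of 0.21 became 0.064 on log2(TPM + 1), where that of all genes was 0.057, 0.077 with Y-linked expression and GC trend removed, 0.090 with the GC trend removed, 0.12 on log2(TPM + 0.1), 0.13 with voom and, at the lowest when 1 library was left out, 0.14 without naïve control 2. The cause was not tested.

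Deviations from the group means were correlated between libraries of the same replicate number, with r of -0.0093, 0.12, 0.28, -0.0094 and -0.0084. Libraries of different numbers were not set against each other, so whether the number marks a pairing was not tested. With the replicate block 9 members, all higher, had an unadjusted p under 0.05 (background 17.4%). Among members that the naming rule picked, the log2 fold change changed sign with the block in Slc25a21 (0.27), Slc25a34 (-0.31) and Slc25a36 (0.15). With the GC trend removed it did in Slc25a11 (-0.097), Slc25a21 (0.25), Slc25a28 (-0.028), Slc25a3 (0.067) and Slc25a34 (-0.013), and with block and GC in Slc25a11 (-0.085), Slc25a21 (0.60), Slc25a28 (-0.0056), Slc25a3 (0.079), Slc25a34 (-0.64) and Slc25a36 (0.53). With voom it did in Slc25a21 (0.75), Slc25a24 (-0.023) and Slc25a34 (-0.34), on log2(TPM + 1) in Slc25a21 (0.048), Slc25a24 (-0.21), Slc25a30 (-1.33) and Slc25a34 (-0.095), and on log2(TPM + 0.1) in Slc25a21 (0.37), Slc25a30 (-1.38) and Slc25a34 (-0.38). Without naïve control 6 and laser treated 5 it did in Slc25a21 (0.0090) and Slc25a24 (-0.57), with the Y-linked covariate in Slc25a13 (-0.017) and Slc25a24 (-0.15), and with that covariate and GC in Slc25a11 (-0.071), Slc25a21 (0.20), Slc25a28 (-0.0096) and Slc25a3 (0.052). Leaving out 1 library gave ranges across 0 in Slc25a13 (-0.015 to 0.31), Slc25a21 (-0.29 to 0.26), Slc25a24 (-0.59 to 0.42) and Slc25a3 (-0.058 to 0.031). None of these values passed an adjusted p under 0.05, and Slc25a30 on TPM had an unadjusted p under 0.05 in the other direction. Of the other members named, Slc25a16 (0.00069), Slc25a38 (-0.041) and Slc25a44 (-0.062) changed sign with the GC trend removed, Slc25a16 (0.16) and Slc25a44 (-0.045) with block and GC, Slc25a29 (-0.055), Slc25a38 (-0.0995) and Slc25a44 (-0.11) with the covariate and GC, Slc25a27 on log2(TPM + 1) (-0.12) and log2(TPM + 0.1) (-0.13), and Slc25a38 (-0.027) and Slc25a44 (-0.048) without laser treated 4.

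Differences in paralog ratios, none past the threshold, changed sign on TPM for Slc25a12 to Slc25a13 (-0.35), Slc25a33 to Slc25a36 (0.45), Slc25a39 to Slc25a40 (0.48) and Slc25a14 to Slc25a30 (1.13), and with the replicate block for Slc25a12 to Slc25a13 (-0.016). With 1 library left out they ranged over -0.047 to 0.064 for Slc25a4 to Slc25a5, -0.11 to 0.19 for Slc25a12 to Slc25a13, -0.52 to 0.46 for Slc25a33 to Slc25a36 and -0.52 to 0.29 for Slc25a39 to Slc25a40. Between the fitted log2 fold changes with the GC trend removed, 2 differences lay on the other side of 0. They were those of Slc25a4 to Slc25a5 (-0.13) and of Slc25a23 to Slc25a24 (-0.19). That of Slc25a39 to Slc25a40 was then -0.65, and these differences were not tested. At 0 to 3.6 CPM, Slc25a21, Slc25a34 and Slc25a45 had intervals too wide for a difference under several fold to be seen.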

Other observations

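Single libraries stood away from the rest in some carriers without a group difference. None of those given here exceeded the Dixon critical value used above. Slc25a25, a calcium-dependent carrier of ATP-magnesium and phosphate, was at 65.1 CPM in laser treated library 4, while the other 4 laser treated libraries lay between 12.4 and 30.2 CPM and the naïve controls between 16.9 and 27. Slc25a40 was at 1.02 CPM in naïve control library 4, against 9.01 to 16.2 CPM in the other 5 controls. Slc25a36 ranged from 1.81 to 26.0 CPM within the naïve controls alone. Over all 11 libraries the coefficient of variation was 8.28% in Slc25a3 and 75.7% in Slc25a45. Slc25a46, just outside the unadjusted threshold (log2 fold change -0.51, SE 0.24, edgeR adjusted p = 0.327), was at 28.1 CPM in laser treated library 2 and 79.5 CPM in laser treated library 1.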
